A study of Mus musculus with 8 samples.

Results

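EF-hand proteins bind calcium through a helix, a short loop and a second helix. The 8 genes described here encode EF-hand proteins that are used to tell classes of sensory neurons apart, or that pass calcium signals on in neurons: Pvalb, Calb1, Calb2, Necab1, Necab2, Hpca, Ncald and Vsnl1. They were chosen by gene symbol from the 40800 gene identifiers of the deposited expression table, and each matched 1 identifier. RNA was sequenced from dorsal root ganglia, which hold the cell bodies of the neurons of touch, pain, itch and limb position, in 4 wild-type C57BL/6 mice (samples 1, 3, 4 and 8) and in 4 mice with both copies of Tmem184b disrupted by a gene trap, on a C57BL/6 background (samples 1, 2, 3 and 4). All mice were 6 months old. A gene trap is an insertion that cuts a transcript short; here no cell type was targeted, and the labels name no sorting of cells, so RNA of glia, vessels and attached tissue can be present with that of neurons. Sex is not given in the labels.

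Calcium that enters a neuron is held by buffer proteins and read by sensor proteins. Parvalbumin (Pvalb), calbindin (Calb1) and calretinin (Calb2) are buffers, and in sensory ganglia they label subsets of large neurons, parvalbumin above all the proprioceptors that report muscle stretch. Hippocalcin (Hpca), neurocalcin delta (Ncald) and visinin-like 1 (Vsnl1) are neuronal calcium sensors, which carry a lipid tail and move to membranes when calcium rises. Necab1 and Necab2 are neuronal proteins with EF-hands near the N-terminus, and both are known from sensory ganglia and spinal cord. Parvalbumin is also abundant in fast skeletal muscle fibres, and most of the 8 genes are expressed in brain and spinal cord.

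The coding sequences show how the members are related. Each line below gives the 36 bases that encode 1 calcium-binding loop of 12 residues, 5′ to 3′, from GENCODE M21 transcripts (GRCm38), and capitals mark the codons of residues 1, 3, 5 and 12, whose side chains hold the calcium ion. Loops were found with the PROSITE EF-hand pattern in the translated coding sequence, and those of 1 family are shown together because the expression of its members is compared further on.
Pvalb loop 1: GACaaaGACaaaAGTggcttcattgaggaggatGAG
Calb1 loop 1: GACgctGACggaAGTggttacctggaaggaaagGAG
Calb2 loop 1: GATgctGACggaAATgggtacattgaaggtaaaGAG
Necab1 loop 1: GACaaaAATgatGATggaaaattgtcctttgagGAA
Necab2 loop 1: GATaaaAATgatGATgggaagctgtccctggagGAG
Hpca loop 2: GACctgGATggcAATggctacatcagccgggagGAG
Ncald loop 2: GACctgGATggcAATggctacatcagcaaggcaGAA
Vsnl1 loop 2: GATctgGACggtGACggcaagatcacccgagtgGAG

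Of these, the Hpca and Ncald loops share 31 of 36 bases and are the same over the first 27, whereas Hpca and Vsnl1 share 26. The order differs between the loops of the sensors, so 1 loop does not rank them. In loop 1, which is not printed for them, Hpca shares 24 bases with Ncald and 29 with Vsnl1. In loop 3 it shares 25 and 23. The printed Calb1 and Calb2 loops share 29 of 36 bases, as do those of Necab1 and Necab2. The pattern found 2 loops in the protein of Pvalb, 4 in Calb1, 5 in Calb2, 1 in Necab1, 2 in Necab2 and 3 each in Hpca, Ncald and Vsnl1. Over whole proteins, Hpca and Ncald were identical at 170 of 193 aligned residues (88.1%), Ncald and Vsnl1 at 69.3%, Calb1 and Calb2 at 59.6% and Necab1 and Necab2 at 43.3%. At the level of a sequencing read the members were distinct: no stretch of 150 bases, the stated read length, in the longest transcript of 7 members occurred in a transcript of another gene. The exception was Ncald, where 31 of 3584 such windows also lie in Gm49397, a transcript annotated at the same place and on the same strand.

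In GRCm38 the genes lie on chromosome 15 (Pvalb, 78191114 to 78206400, minus strand, and Ncald, 37366175 to 37792570, minus strand), chromosome 4 (Calb1, 15881264 to 15908064, plus strand; Necab1, 14952245 to 15149794, minus strand; Hpca, 129111570 to 129122036, minus strand), chromosome 8 (Calb2, 110137502 to 110168210, minus strand; Necab2, 119446719 to 119472640, plus strand) and chromosome 12 (Vsnl1, 11325242 to 11436613, minus strand). The printed loops of Pvalb, Hpca, Ncald and Vsnl1 each lie in 1 exon (exons 2, 4, 5 and 3), and those of Calb1, Calb2, Necab1 and Necab2 span a splice junction. Exons on the other strand overlap Necab1 (Gm11837, 410 bases), Hpca (Tmem54, 57 bases) and Ncald (Gm28221, 332 bases). Strand use in counting is not given in the sources used here, so reads in those stretches cannot be assigned.

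Libraries held 6183618 to 7983821 reads, and neuronal identity was plain in all 8: summed over 10 pan-neuronal genes, among them Snap25, Tubb3 and Avil, the level was 8154 to 9018 CPM (reads per 1000000 reads) in wild type and 8197 to 8801 in the mutant. Of the 10, 7 were lower and 3 higher (median -0.10), and Syt1 and Avil (2 of 10) fell, beside 2.64% of all genes. In 4 of the 10 the groups did not overlap, beside 12.4% of all genes tested. An unadjusted limma p under 0.05 was found for 5 of the 10, beside 21.3% of all genes. The trapped gene followed the labels, with Tmem184b at 164 to 182 CPM in wild types and 5.24 to 8.29 CPM in mutants. All 8 members passed the filter on low values, with at least 44 reads in every library. Values below are log2 CPM as deposited unless CPM is stated, and a gene is said to have risen or fallen when its limma p, adjusted over all 15030 genes tested, is under 0.05. Across all genes the median difference, mutant minus wild type, was 0.066 in the deposited values and -0.026 once every sample had been set to a common median.

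Of the 8 members, Calb1 alone changed. Its level was higher in the mutant by 46%, from 37.3 ± 5.76 to 54.8 ± 9.89 CPM (SD, n = 4 each). Pvalb and Hpca were higher by 24% and 22%, and Ncald and Necab2 lower by 12% and 13%, without passing the test. The share of members called, 1 of 8 (12.5%), stands beside 5.46% of all genes tested (2.81% higher, 2.64% lower). At an unadjusted p under 0.05 there were 4 of 8 members, beside 21.3% of all genes. The median difference of the 8 was -0.004, with 4 members above 0 and 4 below. In bulk RNA fewer cells of a type and less RNA per cell cannot be told apart, nor can more cells and more RNA. Markers of some other neuron classes were lower in the same mutants. All 7 of the nonpeptidergic NP1 class fell (median -0.67), as did 8 of 9 of the itch classes NP2 and NP3 (median -1.40). Of 7 peptidergic genes none was called, with 3 higher and 4 lower (median -0.001). Of 7 tested genes of C low-threshold mechanoreceptors, 1 rose and 1 fell (median -0.01). The gene that fell, Gfra2, is also in the NP1 list and is counted there too. The part of these neuron classes in the values of the members and of the other EF-hand genes given below was not tested.

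**Figure D1:**
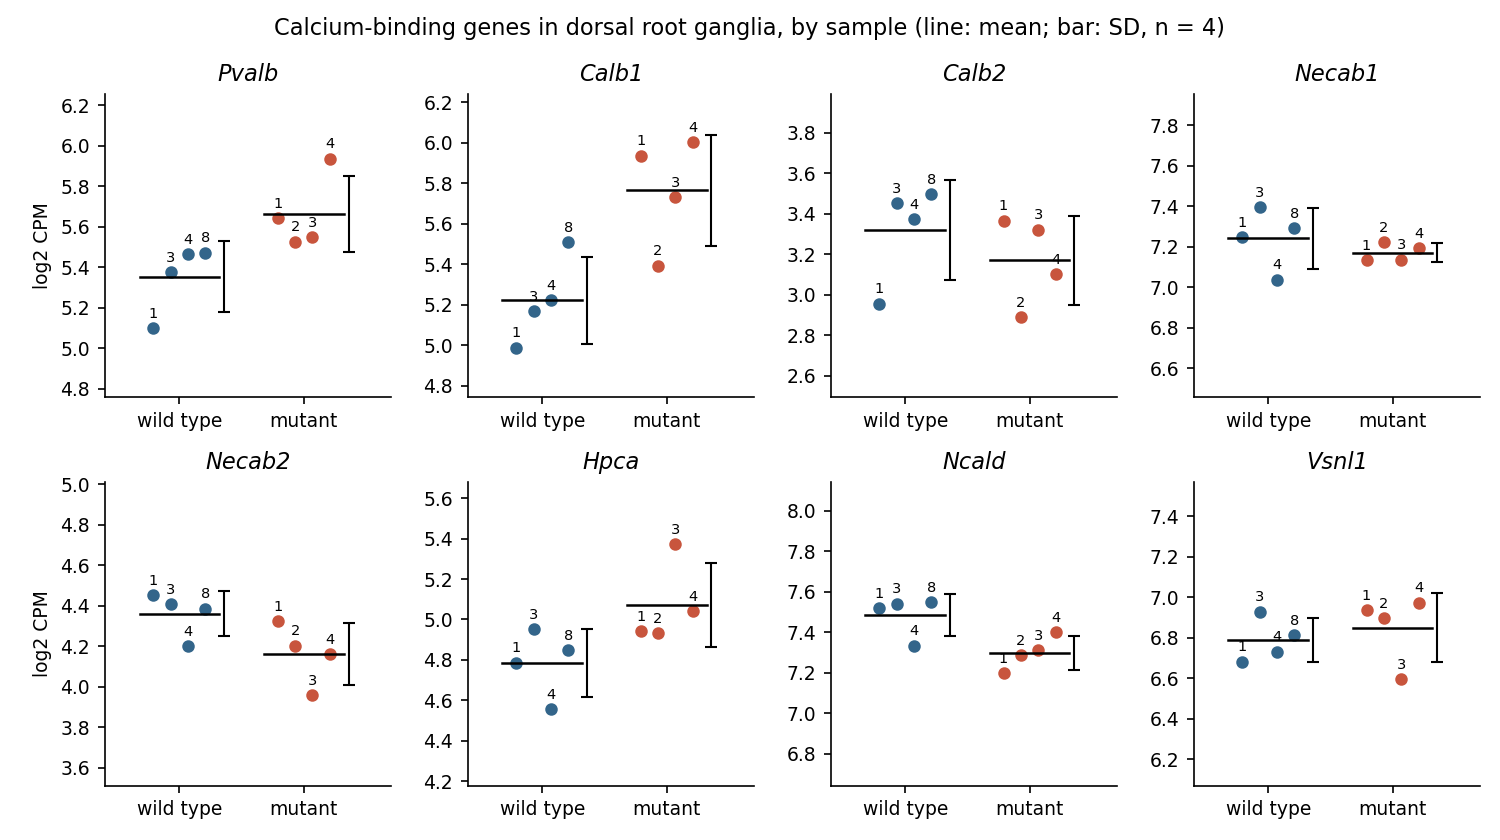
Level of each of the 8 genes in every sample, as log2 CPM, for wild type (blue) and mutant (red); numbers are the sample numbers, lines the group means and bars the SD (n = 4), and every panel spans 1.5 log2 units. The mutants lie above all wild types for Pvalb, and 3 of 4 do so for Calb1.

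Calb1, the calbindin buffer, was at 4.99, 5.17, 5.22 and 5.51 in wild types 1, 3, 4 and 8, whereas mutants 1 to 4 were at 5.94, 5.39, 5.73 and 6.00. Mutants 1, 3 and 4 were above every wild type, and mutant 2 was below wild type 8, so the groups overlapped. The difference was 0.54 (SE 0.128; 95% interval 0.27 to 0.82; limma adjusted p = 0.0237), a 1.46-fold rise; an exact permutation test, two-sided, gave p = 0.0571. The rise kept its direction in all 20 alternatives and its call in 15. It was not called without wild type 1 (0.47; limma adjusted p = 0.0849), wild type 3 (0.53; 0.0659), mutant 1 (0.49; 0.0793) or mutant 4 (0.46; 0.0701), nor in limma without the mean-variance trend (adjusted p = 0.137).

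Calbindin is one of several markers of large neurofilament-rich touch neurons. The list for that class also held the member Necab2, which was lower (-0.20, not called), and 12 genes outside the members. Among these 12, none rose (also by voom) and 1 fell, beside 5.46% called over all genes. An unadjusted limma p under 0.05 was found for 5 of the 12, beside 21.3% over all genes. Of the 12, 11 were higher (median 0.12), beside 9684 higher of 15030 genes. The gene that fell was Ret, a receptor for glial-derived growth factors that other neuron classes also express, at -0.31 (SE 0.061; limma adjusted p = 0.00994). The neurofilament genes Nefh, Nefm and Nefl differed by 0.13, 0.11 and 0.11, and the transcription factors Maf and Mafa by 0.06 and 0.28, none of which passed. Nearer to the threshold were Scn1a at 0.28 (limma adjusted p = 0.0579) and Kcna1 at 0.21 (0.0702), which were not called either. The summed level of the 12 was 10523 to 11835 CPM in wild types and 11323 to 12657 CPM in mutants. Most markers of non-neuronal cells were also higher in the mutant, with 7 of 7 for satellite glia (median 0.25), 7 of 8 for myelinating Schwann cells (median 0.24) and 7 of 8 for fibroblasts and vessels (median 0.37). The 7 satellite glia genes summed to 1823 to 2227 CPM in wild types and 2007 to 2823 CPM in mutants, the 8 Schwann cell genes to 2441 to 3202 and 2890 to 3488 CPM, and the 8 fibroblast and vessel genes to 410 to 708 and 563 to 806 CPM. Of those lists, Glul (1 of 7), Ncmap and Drp2 (2 of 8) and Dcn (1 of 8) rose, beside 2.81% of all genes. Their part in the Calb1 rise was not tested.

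Pvalb, the parvalbumin buffer, was at 5.10, 5.37, 5.46 and 5.47 in wild types 1, 3, 4 and 8, whereas mutants 1 to 4 were at 5.64, 5.53, 5.55 and 5.94. The groups did not overlap, although the gap between wild type 8 and mutant 2 was small; among all genes tested 12.4% had groups apart (7.5% with the mutants higher, 4.92% with them lower). The difference was 0.31 (SE 0.104; 95% interval 0.09 to 0.53), the limma adjusted p was 0.0970, and the two-sided exact permutation test gave p = 0.0286, the lowest it can reach with 4 samples in each group. Pvalb was the only member whose groups were apart, and Calb1 the only one called.

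Skeletal muscle transcripts and Pvalb had the same lowest and highest samples, but not the same order between them. Summed over 12 muscle genes, among them Acta1, Ckm and Myh4, the level was 5.56, 49.5, 18.2 and 17.7 CPM in wild types 1, 3, 4 and 8 and 16.7, 64.0, 56.2 and 208.5 CPM in mutants 1 to 4. Wild type 1 had the lowest and mutant 4 the highest value of both Pvalb and muscle. Mutant 1 had less muscle RNA than wild types 3, 4 and 8 but more Pvalb than any wild type. Wild type 3 had the most muscle RNA of the wild types but less Pvalb than wild types 4 and 8. Of the 12 genes 10 were tested and all 10 were higher in the mutant, none of them called by limma or voom, 7 with an unadjusted limma p under 0.05 (median 1.61), from 0 to 97 reads for Ckm and 7 to 476 reads for Myh4. Without mutant 4 the Pvalb difference was 0.22 (limma adjusted p = 0.252), and without wild type 1 it was 0.23 (0.262). With all samples kept, median centring also gave 0.22 (limma adjusted p = 0.208). The part of muscle RNA in the Pvalb values was not tested.

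**Figure D2:**
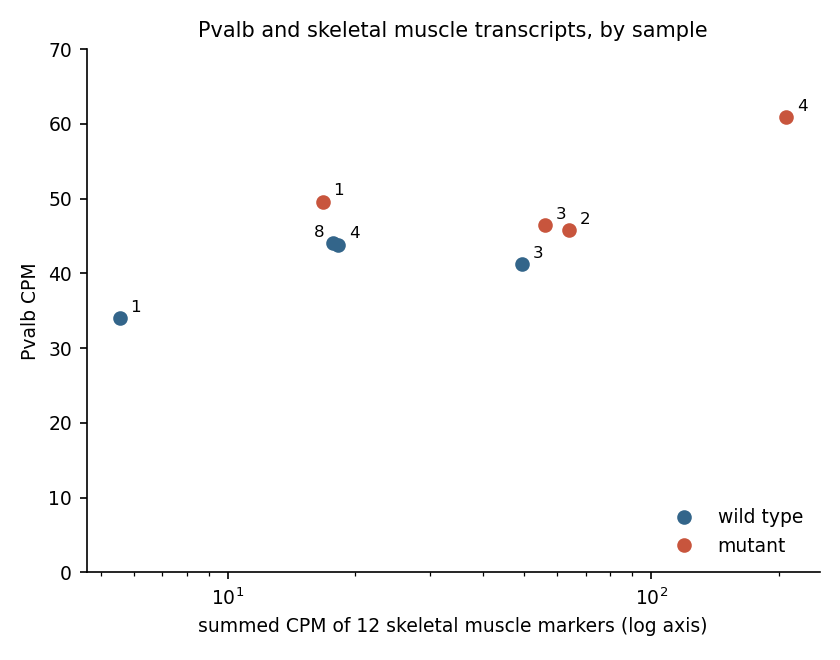
Pvalb level in CPM against the summed CPM of 12 skeletal muscle genes (log axis), 1 point per sample, with wild types in blue and mutants in red and the sample number beside each point. Wild type 1 is lowest and mutant 4 highest on both axes.

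Other genes of proprioceptors gave no common direction. Of 7 listed besides Pvalb, 3 were higher and 4 lower, none was called by limma or voom, 2 had an unadjusted limma p under 0.05, and the median difference was -0.01. Runx3, a transcription factor of the lineage, was at 3.44 in wild type and 3.43 in the mutant (difference -0.01, SE 0.127). Etv1, which acts in the same lineage, differed by -0.15 (limma adjusted p = 0.278) and Spp1, osteopontin, by 0.21 (0.459). Whrn, which encodes the scaffold protein whirlin, was lower by 0.32 (limma adjusted p = 0.0953), opposite in sign to Pvalb.

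Calb2, the calretinin buffer, was the weakest expressed member, with 44 to 87 reads per library. It was at 2.95, 3.45, 3.37 and 3.50 in wild types 1, 3, 4 and 8, whereas mutants 1 to 4 were at 3.36, 2.89, 3.32 and 3.10, so the groups lay over each other. The difference was -0.15 (SE 0.159; 95% interval -0.49 to 0.19; limma adjusted p = 0.635). The interval spans folds from 0.713 to 1.14, so a rise of the size measured for Calb1 lies outside it. In the 6 samples with shared numbers the sign turned, at 0.002.

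The Necab genes encode the pair of EF-hand proteins that carry their calcium-binding loops near the N-terminus. Necab1 was at 7.25, 7.40, 7.04 and 7.29 in wild types 1, 3, 4 and 8, whereas mutants 1 to 4 were at 7.13, 7.22, 7.14 and 7.19. All mutants lay inside the range of the wild types, and the difference was -0.07 (SE 0.070; 95% interval -0.22 to 0.08; limma adjusted p = 0.607). Necab2, which marks a subset of sensory neurons, was at 4.45, 4.41, 4.20 and 4.38 in wild types and at 4.32, 4.20, 3.96 and 4.16 in mutants. Mutants 3 and 4 were below every wild type, and the difference of -0.20 (SE 0.106; 95% interval -0.43 to 0.03) did not pass (limma adjusted p = 0.2997). Necab3, the remaining gene of the family, differed by 0.08 (limma adjusted p = 0.508).

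Among the calcium sensors, Ncald was the most abundant by reads, with 964 to 1486 per library. Its level was 7.52, 7.54, 7.33 and 7.55 in wild types 1, 3, 4 and 8 and 7.20, 7.29, 7.31 and 7.40 in mutants 1 to 4. Mutants 1 to 3 were below every wild type, and mutant 4 was above wild type 4 alone. The difference was -0.19 (SE 0.064; 95% interval -0.32 to -0.05; limma adjusted p = 0.106; exact two-sided permutation p = 0.0571). It passed after median centring (-0.28; limma adjusted p = 0.0334), after a correction for the GC percent of genes, made sample by sample (-0.25; 0.0397) and without wild type 4 (-0.24; 0.0395).

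Hpca, hippocalcin, was at 4.79, 4.95, 4.56 and 4.85 in wild types 1, 3, 4 and 8, whereas mutants 1 to 4 were at 4.94, 4.93, 5.37 and 5.04. Mutants 3 and 4 were above every wild type, and mutants 1 and 2 were just below wild type 3. The difference was 0.29 (SE 0.112; 95% interval 0.05 to 0.52; limma adjusted p = 0.154). Without mutant 3 it was 0.19 (limma adjusted p = 0.329), and after median centring also 0.19 (0.402).

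Vsnl1, visinin-like 1, was at 6.68, 6.93, 6.73 and 6.81 in wild types 1, 3, 4 and 8, whereas mutants 1 to 4 were at 6.93, 6.90, 6.60 and 6.97. Mutant 3 was the lowest of all samples and mutant 4 the highest. The difference was 0.06 (SE 0.083; 95% interval -0.11 to 0.24; limma adjusted p = 0.719) and its sign depended on scaling, at -0.03 after median centring and -0.01 after the GC correction.

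**Figure D3:**
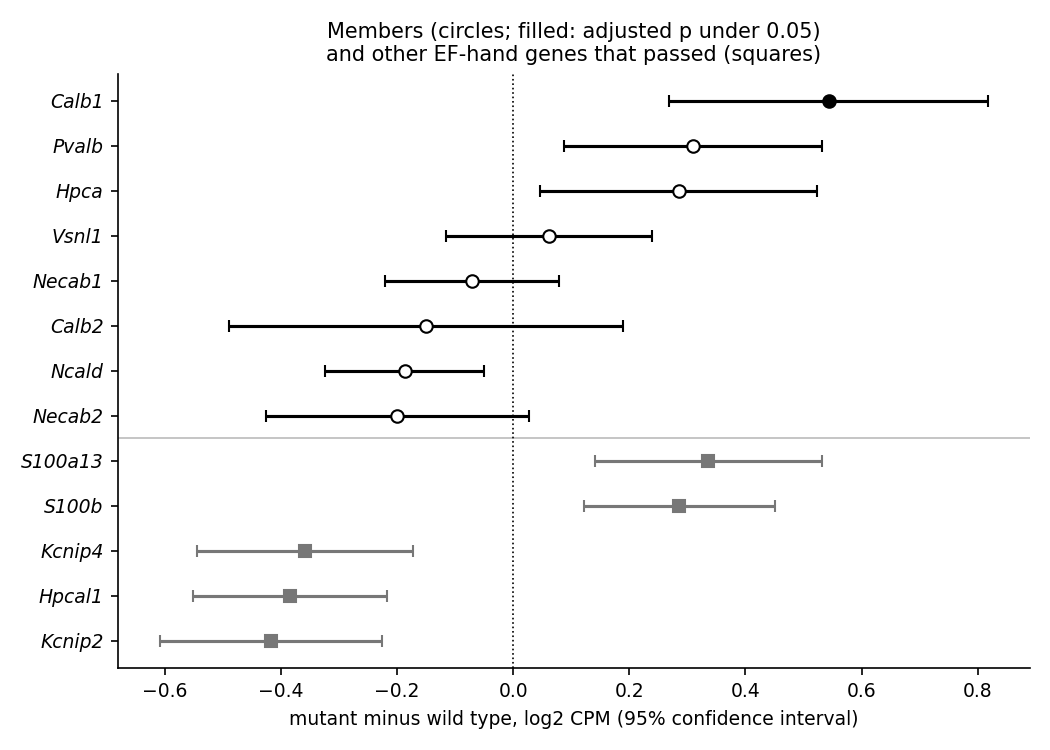
Difference between mutant and wild type in log2 CPM with its 95% confidence interval (limma, 4 samples per group) for the 8 genes (circles, filled where the adjusted p is under 0.05) and for the 5 other EF-hand genes that passed (grey squares). Calb1 lies furthest to the right at 0.54, and Necab2 lowest among the 8 at -0.20.

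The ratio of 2 genes within a sample does not depend on how the library is scaled, so related members were also compared with each other. This was done for 7 pairs, chosen after the results of the single genes were known. Pvalb was paired with Calb1 and Calb2 as a buffer, although its protein is identical to theirs at only 31.2% and 35.8% of aligned residues. The level of Calb1 over Calb2, as a log2 ratio, was 1.72 to 2.03 in wild types and 2.41 to 2.90 in mutants, a difference of 0.69 (SE 0.130). The ratio of Pvalb to Calb2 was 1.92 to 2.14 and 2.23 to 2.83 (0.46, SE 0.154), and that of Hpca to Ncald was -2.78 to -2.59 and -2.36 to -1.94 (0.47, SE 0.107). In these 3 pairs the groups did not overlap. Each had an exact two-sided permutation p of 0.0286, or 0.0667 when adjusted over the 7 pairs, so none passed the threshold. As 0.0286 is the lowest p this test can reach here, an adjusted p under 0.05 needed most of the 7 pairs to reach it. The adjusted values therefore cannot decide whether these ratios differ. How often ratios of other gene pairs had groups apart was not computed. Among the other pairs, Pvalb to Calb1 differed by -0.23 and Ncald to Vsnl1 by -0.25 (exact permutation p = 0.0857 each; adjusted 0.120), Necab1 to Necab2 by 0.13 (exact p = 0.171; adjusted 0.200) and Hpca to Vsnl1 by 0.22 (exact p = 0.429; adjusted 0.429). Hpca and Ncald, whose proteins are the most alike of the 8, thus showed differences of opposite sign, 0.29 and -0.19, neither of which was called.

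**Figure D4:**
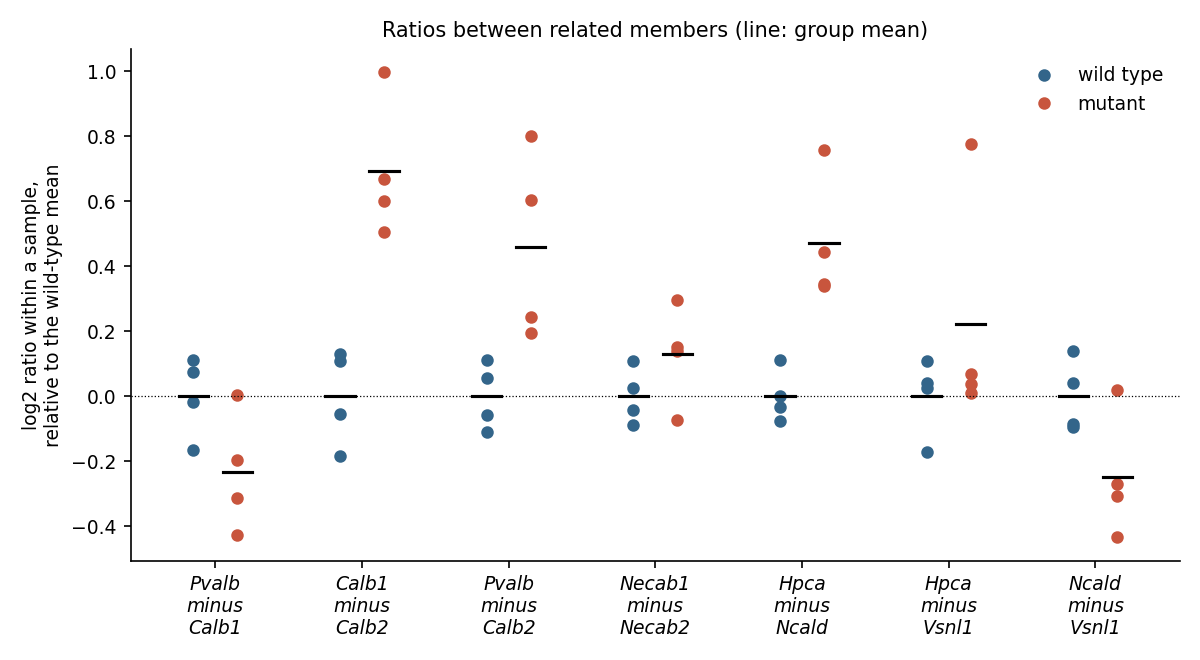
Log2 ratio of related genes within each sample, set to 0 at the wild-type mean of that pair, for wild types (blue) and mutants (red), with lines at the group means (n = 4). The groups are apart for Calb1 to Calb2, Pvalb to Calb2 and Hpca to Ncald.

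Levels of different genes were compared per kilobase of annotated exon. Vsnl1 was highest, at 56.5 ± 4.30 CPM per kb for wild type and 59.1 ± 6.70 for mutant samples (SD, n = 4 each). Pvalb followed with 39.2 ± 4.53 and 48.7 ± 6.74, Necab1 with 29.0 ± 2.95 and 27.5 ± 0.855, and Ncald with 20.9 ± 1.43 and 18.3 ± 1.06. In wild types these 4 held the same order in every sample, with ranges that did not touch, whereas in mutants the ranges of Vsnl1 and Pvalb overlapped. The lower 4 were close together. Necab2 was at 9.68 ± 0.733 in wild type and 8.43 ± 0.884 in the mutant, Hpca at 9.39 ± 1.07 and 11.5 ± 1.75, and Calb1 at 7.71 ± 1.19 and 11.3 ± 2.04. Necab2 was above Hpca in 3 of 4 wild types and in 0 of 4 mutants, and Hpca was above Calb1 in 4 of 4 wild types and 2 of 4 mutants, so neighbours among these 3 did not differ beyond their spread in both groups. Calb2 was last, at 5.62 ± 0.917 and 5.04 ± 0.767.

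**Figure D5:**
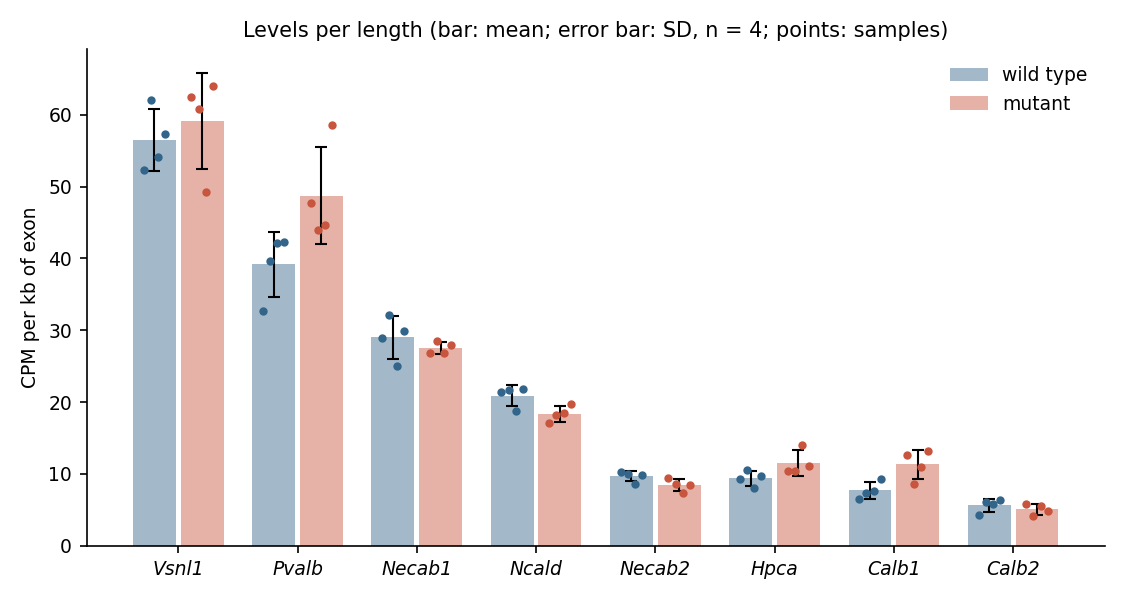
Level of the 8 genes in CPM per kb of annotated exon in wild type (blue) and mutant (red), ordered by the wild-type mean; bars are means, error bars the SD and points the 4 samples of each group. Vsnl1 and Pvalb are highest and Calb2 lowest in both genotypes.

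The place of Ncald and Hpca in that order depended on the length used. With the longest transcript in place of the union of exons, Ncald was at 48.0 CPM per kb in wild type and 42.2 in the mutant. It then ranked above Pvalb (41.7) in wild type and below it (51.9) in the mutant. Hpca moved to 14.9 and 18.2 CPM per kb, ahead of Necab2.

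Beyond the members, 69 other EF-hand genes were listed, from neuronal calcium sensors and Kv channel-interacting proteins to S100 proteins and EF-hand proteins of mitochondria and the secretory pathway. Of these, 56 were tested, 2 rose and 3 fell (8.93% called, beside 5.46% of all genes). Of the 56, 40 were higher and 16 lower, beside 9684 higher of 15030 genes, and the median difference was 0.13, beside 0.066 over all genes. The genes that fell belong to the wider family of Hpca and Ncald. Of its other tested genes in the list, Kcnip1, Kcnip3 and Hpcal4 were higher and Ncs1 was slightly lower, none of them called. Hpcal1, hippocalcin-like 1, whose protein is identical to Hpca at 181 of 193 residues, was at 6.68 to 6.99 in wild types and 6.33 to 6.57 in mutants (difference -0.38, SE 0.078; limma adjusted p = 0.0113). Kcnip2 and Kcnip4, which bind A-type potassium channels of the Kv4 family, fell by 0.42 (SE 0.090; limma adjusted p = 0.0149) and 0.36 (SE 0.087; 0.0272). The groups of Hpcal1 and Kcnip2 were apart, as were those of the 2 genes that rose, and mutant 3 lay just above wild type 4 in Kcnip4. In 10 of the 56 genes tested the groups did not overlap, beside 12.4% of all genes tested.

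Hpca at 0.29 and Hpcal1 at -0.38 thus had opposite signs, although only the second was called and the difference between them was not tested. The genes that rose were both of the S100 family, S100a13 (0.34, SE 0.091; limma adjusted p = 0.0462) and S100b (0.29, SE 0.077; 0.0438), of which S100b is known as a glial protein. Others of the wider family of Hpca and Ncald were not called. The sensor Ncs1 differed by -0.07 (limma adjusted p = 0.507) and Kcnip3 by 0.05 (0.691). Kcnip1 was higher by 0.23 (limma adjusted p = 0.344), and Hpcal4, with 15 to 31 reads per library, by 0.50 (0.183). Hpcal1 was called in all 8 fits that each left out 1 sample. Kcnip2 was not called without wild type 1 or mutant 1 (adjusted p of 0.0541 and 0.0534), and Kcnip4 not without wild types 1, 3 or 8 or mutants 1 or 2 (0.0576 to 0.0844). S100a13 and S100b were each called in the fit without mutant 3 alone, with adjusted p of 0.0541 to 0.127 and 0.0504 to 0.139 in the other 7. Within these 8 fits S100b ranged from 0.20, without mutant 4, to 0.32. Scaling also ended both calls: after median centring the limma adjusted p was 0.112 for S100a13 and 0.172 for S100b, and after the GC correction 0.0659 and 0.0833. Without the mean-variance trend none of the 5 was called, with limma adjusted p of 0.0992 for Hpcal1, 0.117 for Kcnip2, 0.148 for Kcnip4, 0.135 for S100a13 and 0.178 for S100b.

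Markers of the central nervous system, where most members are also expressed, were present at low levels. Of 13 central nervous system genes 9 were tested and none was called by limma or voom, with 2 at an unadjusted limma p under 0.05; 8 of the 9 were higher in the mutant (median 0.17). Their sum was 47.8 to 114.7 CPM in wild types and 66.2 to 107.1 CPM in mutants. Opalin and Neurod6, of oligodendrocytes and forebrain neurons, had no reads in any library, which allows up to 3 reads in each. Mog was at 1 to 7 reads and Gad1 at 3 to 13. Wild type 8 had the highest sum and also the highest Calb1 of the wild types, whereas mutant 2 had the highest sum and the lowest Calb1 of the mutants. The part of these markers in the members' values was not tested.

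The genes whose profile over the 8 samples lay nearest to 3 members with a range of at least 0.75 log2 were taken from 13142 genes, by the root mean square difference after centring. Nearest to Pvalb were Gstm1 (0.057), a glutathione transferase, Ggact (0.059) and Sh3bgr (0.072). Nearest to Calb1 were Fxyd1 (0.118), a regulator of the sodium pump, Hist1h2bc (0.118), a histone gene, and Gstt1 (0.127), another glutathione transferase. Nearest to Hpca were Gtdc1 (0.071), Fam135a (0.074) and Oxld1 (0.083). Of these 9 genes none was called, the lowest limma adjusted p being 0.0566 for Fxyd1, which differed by 0.51. With 8 samples and many genes, near profiles are a description alone.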

How the data were processed

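Expression was deposited by the authors as moderated log2 CPM, the log2 of reads per 1000000 with a small prior, in 1 table whose header and name give the unit. Salmon 0.11.1, DESeq2 and the build mm9 are named in the submitters' processing notes with no role or order. Reads were single-end and 150 bases long, per the labels' protocols. The deposited GC percent of each gene served for a GC correction. Repeated lines (402 identifiers, equal values) were dropped, which left 40800 identifiers. Removing the shared floor (-1.79, 0 reads) gave whole multiples of the value of 1 read for 100.0% of values, within 0.05 reads. The recovered totals were 6183618 to 7983821, so 1 read is 0.125 to 0.162 CPM, and at least 99.9% lay in the listed genes; intervals for reads would cover counting error only.

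Genes above 0 log2 CPM in at least 4 samples (15030) were fitted with limma 3.58.1 in R 4.3.3 (eBayes with trend, two-sided, no covariate), with Benjamini-Hochberg adjustment over all of them; the procedure was tested on simulated data. Of these, 820 were called, 423 higher and 397 lower, and 204 and 706 after median centring. Exact permutation tests used all 70 assignments. Fold changes on the moderated scale understate those of genes with few reads. Confidence intervals use 14.6 degrees of freedom. Loops and lengths came from GENCODE M21 (GRCm38), not the submitters' build, with Biopython 1.88. The members and lists were chosen with earlier results of these data known. The genes named are the 8 members, called EF-hand genes, marker genes set beside a member, and the 3 nearest profiles. Ncs1, Kcnip1, Kcnip3, Hpcal4 and Necab3 were named after their values were seen. Numbers 1, 3 and 4, shared by both genotypes, were not treated as pairs in the main fit. The table's column names carry running numbers of unstated meaning whose ranges do not mix the genotypes, so anything tied to them cannot be told apart from genotype. Python 3.11.15, numpy 2.4.6, pandas 2.3.3, scipy 1.17.1 and matplotlib 3.10.9 were used.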

Additional observations from a re-analysis of the deposited data

Results flagged for a closer look

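Dixon's test at the 95% level, run on 50 sets of 4 samples, picked out 3 single samples; about 2.5 (1 in 20) are to be expected by chance. Wild type 4 had 7.33 log2 CPM of Ncald, against 7.52 to 7.55 in the other wild types. Mutant 4 had 9.41 log2 CPM of S100b, against 9.04 to 9.09 in the other mutants. Mutant 3 had a log2 ratio of Hpca to Vsnl1 of -1.22, against -1.99 to -1.93 in the other mutants; it had the highest Hpca and the lowest Vsnl1 of all 8 samples.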

How the results depend on the processing

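Calb1 kept its direction in all 20 alternatives; it was not called without the variance trend (0.54; limma adjusted p = 0.137), and with 1 sample left out it ranged from 0.46 to 0.67 (adjusted p of 0.00653 to 0.0849). Pvalb ranged from 0.22 to 0.36 with 1 sample left out and Ncald from -0.24 to -0.15. Ncald was called after median centring (-0.28; 0.0334) and the GC correction (-0.25; 0.0397). Vsnl1 reversed in those 2 (-0.030 and -0.011). Hpca, Necab1 and Necab2 were called in no alternative and kept their signs. The cause of these shifts was not tested.

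The numbers 1, 3 and 4 were not treated as pairs in the main fit. Same-numbered deviations correlated at 0.081, 0.041 and 0.058. These values alone cannot exclude a pairing, as samples with different numbers were not correlated beside them. In the replicate block over those 6 samples Pvalb passed (0.40; limma adjusted p = 0.0451), which it did not in the same samples unpaired (0.40; 0.104), and Calb2 reversed to 0.0025 with the block and 0.0025 without it.

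Members called were 2 after median centring, after the GC correction and in the replicate block, 0 without the variance trend (3 at an unadjusted limma p under 0.05, 1 called by voom), and 0 to 2 with 1 sample left out. Other EF-hand genes called were 3 after median centring, 0 without the variance trend, 1 in the 6 samples unpaired, and 1 to 6 with 1 sample left out. Over all genes, 204 were higher and 706 lower after median centring, 67 and 75 without the trend, 257 and 604 after the GC correction, 271 higher after quantile normalization and 180 higher in the 6 samples unpaired. With 1 sample left out these were 171 to 571 higher and 224 to 426 lower. Of genes called, 51.6% were higher as deposited, 22.4% after centring, 39.1% after quantile normalization and 29.8% after the GC correction; these 3 lowered the median difference to -0.026, 0.003 and 0.005, from 0.066.

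Levels per kb of the longest transcript, in wild type and mutant, moved to 6.84 and 6.14 for Calb2, 14.9 and 18.2 for Hpca, 48.0 and 42.2 for Ncald, and to 29.3 in the mutant for Necab1. Calb2, with 44 to 87 reads per library, is the member whose precision depth limits most.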
